A study of Mus musculus with 6 samples.

Results

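The factors of nonsense-mediated decay examined here are Upf1, Upf2, Upf3a, Upf3b, Smg1, Smg5, Smg6 and Smg9. They were taken by gene symbol from tables of RNA counts per gene in mouse embryonic stem cells given cycloheximide. All 8 symbols were found among the 17485 genes in the tables. The cells were the E14 line of strain 129/Ola, kept in serum with LIF, a cytokine that holds embryonic stem cells in self-renewal. From 24 h after seeding they were exposed for 3 h or 6 h to 250 µg/mL cycloheximide, dissolved so that ethanol made up 0.007% of the medium, and control cells had ethanol alone for 9 h. All groups thus shared the line, the medium and the ethanol, and the control time matched neither treatment time. Each of the 3 groups had 2 libraries of polyadenylated RNA from many cells, 6 libraries in all. No label says that the 2 libraries of a group came from separate cultures, so p-values here measure only the spread between these libraries, which may be technical.

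Nonsense-mediated decay removes mRNAs on which a ribosome stops too early. Upf1, an RNA helicase, joins the stalled ribosome. It is bridged through Upf2 and Upf3b to an exon junction complex, the protein mark left by splicing, that still lies downstream of the stop codon. Smg1, a kinase held in a complex with Smg8 and Smg9, then phosphorylates Upf1. Phosphorylated Upf1 recruits Smg6, an endonuclease that cuts the mRNA near the stop codon, and Smg5, an adaptor through which deadenylation and decapping enzymes are brought in. Because recognition of the stop codon needs a translating ribosome, cycloheximide, which blocks elongation, stabilises many substrates of the pathway. Transcripts of several of its own factors are reported as substrates in mammalian cells, which is described as a feedback loop. The factors so reported include Upf1, Upf2, Upf3b, Smg1, Smg5 and Smg6. Upf3a, the autosomal paralog of the X-linked Upf3b, and Smg9 are not in that set as listed here.

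In the GENCODE M21 annotation of mm10, 3 of the 8 genes had a transcript annotated as a substrate of nonsense-mediated decay, against 28.3% of the 11578 tested genes with a matched annotation. These were Smg1, Smg5 and Smg6, and all 3 transcripts are annotated with an incomplete 5′ end. Their stop codons are shown because a substrate of this kind carries its stop upstream of further exon junctions. Each line gives the 24 coding bases before the stop in lower case and the stop codon in capitals. The printed bases of Smg1-204 and Smg6-202 also occur in the main protein-coding transcript of the same gene. Those of Smg5-202 do not.
Smg1-204: acagagaccgaagactggctactgTAA
Smg5-202: gaagccatgtattgctacttgcgcTGA
Smg6-202: gatggagacattccctgcagtggcTGA
The Smg1 stop begins at position 118210782 of chromosome 7 on the minus strand, in exon 2 of 61. It is followed by 59 junctions, the first of them 41 bases downstream. In Smg5 the stop begins at position 88347595 of chromosome 3 on the plus strand, in exon 5 of 9. That stop codon is itself split by a junction, so 3 further junctions follow it, lying 156 to 434 bases downstream. The Smg6 stop begins at position 74990094 of chromosome 11 on the plus strand, in exon 8 of 17, and 9 junctions follow within 1379 bases. The deposited counts are one number per gene, so the level of these transcripts relative to the other transcripts of the same genes was not measured.

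Other annotated features of the members' main transcripts were set beside those of all tested genes with a matched annotation. An ATG in the 5′ untranslated region, which can open an upstream reading frame, was present in 4 of 8 members (Upf2, Smg1, Smg9 and Smg5) and in 48.8% of all genes. An exon junction far enough downstream of the normal stop codon to mark a substrate was present in none of the 8 and in 0.389% of all genes. Main transcripts were picked only among those annotated as protein-coding, which leaves out transcripts annotated as substrates. Low values were therefore set in advance by that choice, and no conclusion is drawn from them. Coding sequences were long, with a median of 3214.5 bases against 1380 for all genes, and 7 of 8 lay above that value. The 3′ untranslated regions ranged from 400 to 4233 bases, with a median of 1094 bases against 952. Apart from coding length, and leaving the junction count aside, the members' values lay near those of all genes in these features.

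Upf2 and Smg9 were the members whose counts passed the test after 6 h, as given below, and the 150 bases before their RefSeq start sites are shown for that reason (assembly GRCm38.p6). The windows lie at chr2:5951319-5951468 and chr7:24399478-24399627, both on the plus strand.
Upf2: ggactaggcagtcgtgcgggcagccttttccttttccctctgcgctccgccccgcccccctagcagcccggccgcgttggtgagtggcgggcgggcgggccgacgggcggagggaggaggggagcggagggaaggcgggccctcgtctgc
Smg9: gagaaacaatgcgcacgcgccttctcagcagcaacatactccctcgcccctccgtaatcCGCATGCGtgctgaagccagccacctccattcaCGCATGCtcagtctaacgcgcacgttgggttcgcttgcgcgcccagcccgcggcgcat
RefSeq start sites were matched for all 8 members, and the 250 bases before each were searched on both strands for 8 motifs. The motifs were the NRF1 core GCATGCG, the ETS core CCGGAAG, the E-box CACGTG, the CCAAT box CCAAT, the TATA box TATAAA, the cyclic AMP response element TGACGTCA, its shorter site TGACG and the YY1 core AAGATGG. A full cyclic AMP element always holds the shorter site, and the NRF1 core can overlap itself on the other strand. Capitals mark the NRF1 core, on either strand, in the Smg9 window, where it gave 3 matches at 2 places. The Upf2 window held none of the motifs. The NRF1 and YY1 motifs had first been searched in longer forms, of which the Smg9 window held none, and the shorter forms were chosen after that. A match is of letters only. The GC content of the 250 bases was 64.0% for Upf2 and 61.6% for Smg9, against a median of 52.4% over 32851 promoters, and the 8 members ranged from 56.8% to 72.8%. CCAAT was found in Upf3a, Upf3b and Smg1 and in 33.8% of all promoters. The NRF1 core was found in Upf1 and Smg9 and in 3.02% of all promoters. The YY1 core was found in Upf3b and in 4.49%, and the TGACG site in Upf3b and in 17.8%.

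Library totals ranged from 9385447 counts in control replicate 2 to 27351079 in the first library at 6 h. The mitochondrial chromosome took 24.7% and 24.9% of counts in the controls, 18.9% to 19.6% at 3 h and 16.6% to 17.5% at 6 h. Levels are given below in CPM, counts divided by the scaled library total and brought to a common size, after scaling by trimmed mean of M values, a scaling that sets the bulk of genes as the unchanged reference. Scaling to library totals alone raised the median log2 change of all genes by 0.23 at 3 h and 0.36 at 6 h, and each change below is relative to the first scaling. The summed CPM of 8 embryonic stem cell markers was 6546 to 6716 in the controls. It was 7538 to 7771 at 3 h and 5235 to 5444 at 6 h. Pou5f1 and Sox2, which define these cells, were expressed in every library. Nanog, another of the 8, was low, at 6.00 and 10.02 CPM in the controls, 4.07 and 8.84 at 3 h, and 3.86 and 5.83 at 6 h. Sox2 was at 2282 and 2602 CPM in the controls, 3849 and 3958 at 3 h, and 2338 and 2377 at 6 h. At 3 h, 3 of the 8 had a log2 change above 0, and Sox2 alone had an adjusted p under 0.05 (edgeR). At 6 h none of the 8 lay above 0. Zfp42 (-0.98), Utf1 (-0.75) and Dppa5a (-0.37) were then lower with an adjusted p under 0.05 (edgeR). Summed over 4 feeder fibroblast markers the level was at most 9.65 CPM in any library. The summed level of 3 trophoblast markers was 6.08 to 7.58 CPM in the controls and 18.3 to 20.5 at 6 h. Of these, Cdx2, which defines these cells, had at most 3 counts in any library and was not tested. Gata3 (2.52) and Tfap2c (1.19) were higher at 6 h with an adjusted p under 0.05 (edgeR). That of 4 endoderm markers was 3.93 to 4.89 CPM in the controls, 13.1 to 13.6 at 3 h and 7.72 to 11.5 at 6 h. That of 4 neural markers was 327 to 338, 281 to 323 and 136 to 142 CPM, of which most was Tubb3 in the controls. Tubb3 was lower at 6 h by -1.88, with an adjusted p under 0.05 (edgeR). The others did not share this fall. Mean levels of Sox1 were 67.0, 100 and 64.1 CPM and those of Pax6 1.42, 2.66 and 2.93, with no adjusted p under 0.05 against control (edgeR). Neurog2 was not tested. That of 4 mesoderm markers was 5.25 to 12.2 in the controls and 6.13 to 9.82 in the treated libraries. The part of these markers in the results below was not tested.

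Across the 8 factors, the transcripts of Upf2, the bridging factor, and Smg9, the kinase subunit, were about doubled after 6 h of cycloheximide. Upf2 rose 2.22-fold and Smg9 rose 1.99-fold. The call of Upf2 was kept under every alternative run, and that of Smg9 ended in 8 of 16, including each fit without 1 library. No member was called lower at either time. Smg6 was higher by a similar size at both times without passing the test. Upf1 and Upf3b had log2 changes of 0.49 and 0.44 at 6 h that did not pass the test. Those of Upf3a, Smg1 and Smg5 at 6 h lay between -0.09 and 0.05, and none passed. In RNA from many cells, fewer cells of a type and less RNA per cell cannot be told apart, and this holds for every value here.

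All 8 members passed the filter on low counts. With edgeR's quasi-likelihood test and Benjamini-Hochberg adjustment over all 12755 genes tested, a gene was called when its adjusted p was under 0.05. After 3 h none of the 8 was called, against 4.9% of all genes (3.6% called higher and 1.3% lower), and DESeq2 and limma-voom also called none. At 3 h, 3 of 8 had an unadjusted p under 0.05 (Upf2, Smg9 and Smg6), which is 37.5%, against 24.7% of all genes, and at 6 h the same 37.5% stood against 41.4%. After 6 h 2 of 8 were called, both higher, against 29% of all genes called in either direction and 14.8% called higher. The share of members called, 2 of 8, was thus near the background of that comparison. Between 6 h and 3 h none was called, by edgeR, DESeq2 or limma-voom, against 1.64% of all genes (0.455% higher and 1.18% lower), and Upf2 alone had an unadjusted p under 0.05, 12.5% of the members against 18.1% of all genes.

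The median log2 change of the 8 was 0.33 at 3 h and 0.46 at 6 h, against 0.02 and 0.04 over all genes tested. Single libraries moved these medians: without control replicate 1 they were 0.64 and 0.82, and without control replicate 2 they were 0.21 and 0.18. The 6 h median was 0.68 without the first 6 h library and 0.21 without the second. Scaled by library totals alone the 3 h and 6 h medians were 0.56 and 0.82. Both libraries at 3 h lay above both controls for 3 members, against 28.4% of all genes. At 6 h this was so for 4 members (Upf1, Upf2, Smg9 and Smg6), against 35.7% of all genes. No member had both treated libraries below both controls at either time, against 24.8% and 31.2% of all genes. Both 6 h libraries lay above both 3 h libraries for 2 members (Upf2 and Smg9), against 27.2% of all genes, and below them for 2 (Smg1 and Smg5), against 26.9%. The comparisons of 3 h and of 6 h use the same 2 control libraries, so their values are given side by side only. Among all genes called, 73.4% were higher at 3 h and 50.8% at 6 h. Scaled by library totals alone, these shares were 95.8% and 88.2%.

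**Figure D1:**
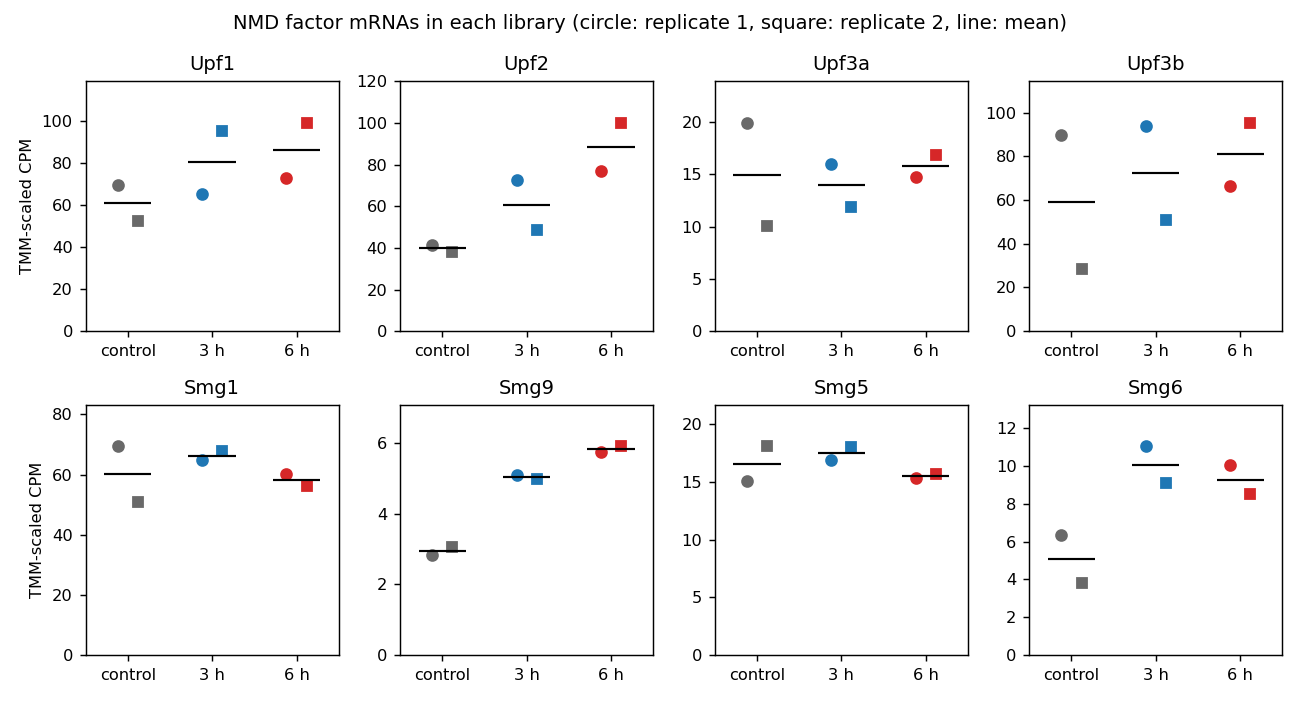
Levels in CPM of the 8 factors in each library, with a panel for each gene, the groups on the horizontal axis, a circle for replicate 1, a square for replicate 2 and a line at their mean. Upf2 and Smg9 have both 6 h libraries above both controls, and the control points of Upf3b lie at 89.8 and 28.5 CPM.

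Among the factors of the surveillance core, Upf2 had the largest fitted change at 6 h. Upf2, which spans 5951469 to 6056703 on the plus strand of chromosome 2, was at 41.6 and 38.1 CPM in the controls, 72.8 and 48.6 at 3 h, and 77.0 and 100.05 at 6 h. Both libraries at each time lay above both controls, and the 6 h libraries also lay above those at 3 h. The means were 39.8 ± 2.44, 60.7 ± 17.1 and 88.5 ± 16.3 CPM (SD, n = 2). The log2 change of Upf2 was 0.60 ± 0.21 (SE) at 3 h, with an adjusted p of 0.127 by edgeR. At 6 h it was 1.15 ± 0.21, with an adjusted p of 0.00605 and a 95% interval of 0.66 to 1.63. The step from 3 h to 6 h was 0.54 ± 0.21, with an adjusted p of 0.215. The 6 h call of Upf2 was kept under all 17 alternatives, with log2 changes of 0.95 to 1.51 and adjusted p up to 0.0485.

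Upf1, the helicase at the centre of the pathway, spans 70331525 to 70353278 on the minus strand of chromosome 8. It was at 69.7 and 52.2 CPM in the controls, 65.1 and 95.4 at 3 h, and 73.0 and 99.1 at 6 h. The 3 h libraries overlapped the controls, and the 6 h libraries lay above them, the lower one by a small margin. Mean levels were 61.0 ± 12.4, 80.3 ± 21.4 and 86.1 ± 18.5 CPM (SD, n = 2). The log2 change of Upf1 was 0.39 ± 0.23 at 3 h (adjusted p = 0.329, edgeR) and 0.49 ± 0.23 at 6 h (adjusted p = 0.141, edgeR). The 95% interval at 6 h, -0.03 to 1.02, contains both 0 and a doubling. In the annotation 68 exonic bases of Upf1 overlap Cers1 and 63 overlap Gdf1 on the other strand. Whether counting used the strand is not given in the sources used here, so reads from those bases cannot be assigned to either gene.

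Upf3b, the X-linked paralog that contacts the exon junction complex, differed more between the replicates of each group than any other member. It spans 37091678 to 37110322 on the minus strand of chromosome X. Its levels were 89.8 and 28.5 CPM in the controls, 93.8 and 50.8 at 3 h, and 66.5 and 95.3 at 6 h, so that all groups overlapped. The ratio of the larger to the smaller control value was 3.15, and 94.3% of all tested genes had a smaller ratio between the controls, with a median of 1.22. At 3 h and 6 h the ratio for Upf3b was 1.85 and 1.43. Mean levels were 59.1 ± 43.4, 72.3 ± 30.4 and 80.9 ± 20.4 CPM (SD, n = 2). For Upf3b the log2 change was 0.27 ± 0.47 at 3 h (adjusted p = 0.766, edgeR) and 0.44 ± 0.47 at 6 h (adjusted p = 0.518, edgeR), with a 95% interval at 6 h of -0.63 to 1.50. Single libraries moved the 6 h change of Upf3b, and the controls moved it most. It was 0.67 without the first 6 h library and 0.16 without the second. Without control replicate 1 the 6 h change was 1.50 with an adjusted p of 0.0177, and without control replicate 2 it was -0.15.

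Upf3a, which can replace Upf3b weakly in decay and has been described as an inhibitor of it, spans 13785615 to 13799193 on the plus strand of chromosome 8. It was at 19.9 and 10.02 CPM in the controls, 16.02 and 11.8 at 3 h, and 14.7 and 16.9 at 6 h. The controls enclosed all 4 treated libraries. Its log2 change was -0.13 ± 0.31 at 3 h (adjusted p = 0.833, edgeR) and 0.05 ± 0.30 at 6 h (adjusted p = 0.917, edgeR). The 95% intervals, -0.83 to 0.57 and -0.64 to 0.74, extend to both sides of 0. Scaled by library totals alone the 3 h change was 0.10, in the other direction. The ratio of Upf3b to Upf3a counts was 4.51 and 2.84 in the controls, 5.85 and 4.29 at 3 h, and 4.52 and 5.65 at 6 h. This ratio also depends on the lengths of the transcripts, and its 3 h values overlapped those of the controls.

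In the kinase complex, Smg9 rose at 6 h, and Smg1, the kinase that it binds, did not pass the test at either time. Smg9, a regulatory subunit, spans 24399619 to 24422778 on the plus strand of chromosome 7. It was at 2.82 and 3.05 CPM in the controls, 5.10 and 4.97 at 3 h, and 5.74 and 5.90 at 6 h. The 3 groups did not overlap, and the replicates of each group differed by ratios of only 1.03 to 1.08. These levels rest on 38 and 25 counts in the controls and on 79 to 174 counts in the treated libraries. Mean levels were 2.94 ± 0.169, 5.04 ± 0.0945 and 5.82 ± 0.114 CPM (SD, n = 2).

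The log2 change of Smg9 was 0.78 ± 0.29 at 3 h, with an adjusted p of 0.144 by edgeR. At 6 h it was 0.99 ± 0.29, with an adjusted p of 0.0322 and a 95% interval of 0.34 to 1.64. From 3 h to 6 h it was 0.21 ± 0.27, with an adjusted p of 0.729. The 6 h call of Smg9 ended without any one of the 6 libraries, with adjusted p of 0.0513 to 0.148. It also ended with limma-voom, at an adjusted p of 0.0508, and with only the 4 libraries compared in the fit, at 0.0581, while the log2 change stayed between 0.93 and 1.35 over all alternatives.

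Smg1, the kinase that phosphorylates Upf1, spans 118131308 to 118243670 on the minus strand of chromosome 7. It was at 69.4 and 51.0 CPM in the controls, 64.9 and 67.7 at 3 h, and 60.1 and 56.2 at 6 h. All 4 treated libraries lay between the controls. Mean levels were 60.2 ± 13.0, 66.3 ± 1.98 and 58.1 ± 2.76 CPM (SD, n = 2). For Smg1 the log2 change was 0.14 ± 0.16 at 3 h (adjusted p = 0.648, edgeR) and -0.05 ± 0.16 at 6 h (adjusted p = 0.835, edgeR), where scaling by library totals alone gave 0.30. The 95% interval at 6 h was -0.42 to 0.32, which does not reach the changes fitted for Upf2 or Smg9.

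The third subunit, Smg8, is no member but belongs to the same complex. It was at 129 and 157 CPM in the controls, 141 and 124 at 3 h, and 83.0 and 79.5 at 6 h. Smg8 fell by 0.82 on the log2 scale at 6 h, with an adjusted p of 0.0042 by edgeR, and that call was kept under all 17 alternatives.

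**Figure D2:**
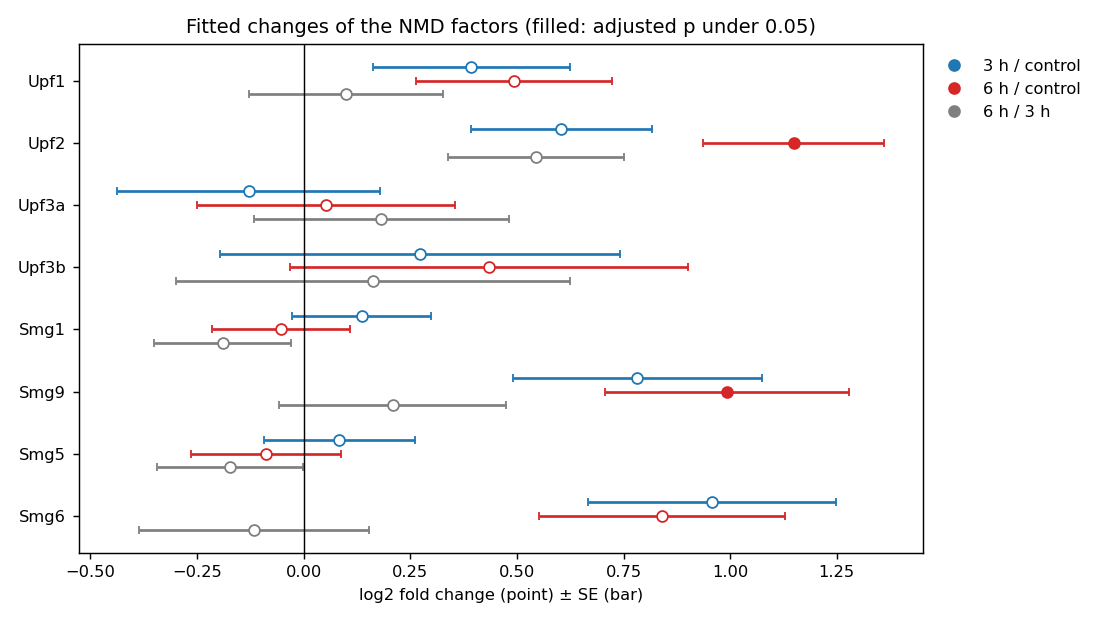
Fitted log2 fold change of each factor (point) with its SE (bar) for both treatment times set against the controls and for the later set against the earlier time, where filled points have an adjusted p under 0.05. Upf2 at 1.15 and Smg9 at 0.99, both at 6 h, are the filled points.

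Of the effectors that act on phosphorylated Upf1, Smg6 was higher in all 4 treated libraries and Smg5 was not. Smg6, the endonuclease, spans 74925823 to 75164448 on the plus strand of chromosome 11. It was at 6.37 and 3.79 CPM in the controls, 11.05 and 9.13 at 3 h, and 10.1 and 8.51 at 6 h. Every treated library lay above both controls, and the 3 h and 6 h libraries overlapped. The controls rest on 86 and 31 counts.

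Mean levels of Smg6 were 5.08 ± 1.83, 10.1 ± 1.35 and 9.29 ± 1.10 CPM (SD, n = 2). Its log2 change was 0.96 ± 0.29 at 3 h, a fold of 1.94 with an adjusted p of 0.092 by edgeR. At 6 h it was 0.84 ± 0.29, a fold of 1.79 with an adjusted p of 0.0581. The 95% intervals, 0.29 to 1.62 and 0.18 to 1.50, lay above 0 before adjustment over all genes. Without control replicate 1 it passed the test at both times, with adjusted p of 0.0341 and 0.0178, and without control replicate 2 the 6 h change was 0.55. In the annotation 126 exonic bases of Smg6 overlap Srr and 117 overlap Gm12333 on the other strand. The mean level of Srr over the 6 libraries was 0.456 CPM, and that of Gm12333 is not given here. The part of reads from these bases in the Smg6 values was not tested.

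Smg5, the adaptor, spans 88336260 to 88362338 on the plus strand of chromosome 3. It was at 15.0 and 18.1 CPM in the controls, 16.9 and 18.03 at 3 h, and 15.3 and 15.7 at 6 h, and the controls enclosed all treated libraries. Mean levels were 16.6 ± 2.15, 17.5 ± 0.781 and 15.5 ± 0.286 CPM (SD, n = 2). The log2 change of Smg5 was 0.08 ± 0.18 at 3 h (adjusted p = 0.811, edgeR) and -0.09 ± 0.18 at 6 h (adjusted p = 0.74, edgeR), where scaling by library totals alone gave 0.27. The 95% interval at 6 h was -0.49 to 0.31.

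Of the 6 members reported as feedback substrates, 1 was called at 6 h (Upf2, higher). At that time 29% of all genes were called, and 14.8% were called higher. At 6 h 4 of 6 had a log2 change above 0, as did 6669 of all 12755 genes. Both 6 h counts lie near that background. At 3 h none of the 6 was called, against 4.9% of all genes, and 6 of 6 lay above 0, as did 6663 of 12755. Without control replicate 2, Smg1 and Upf3b had 3 h changes below 0 (-0.064 and -0.31). Without control replicate 1, Smg5 alone of the 6 had one (-0.053). Of the other 2 members, Smg9 was called at 6 h and Upf3a was not. The transcripts annotated as substrates belong to Smg1, Smg5 and Smg6. None of these 3 genes was called at 3 h or 6 h, when 4.9% and 29% of all genes were. A count over 3 genes is too small to set against those shares. Smg6 was higher at both times, with adjusted p of 0.092 and 0.0581 by edgeR.

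**Figure D3:**
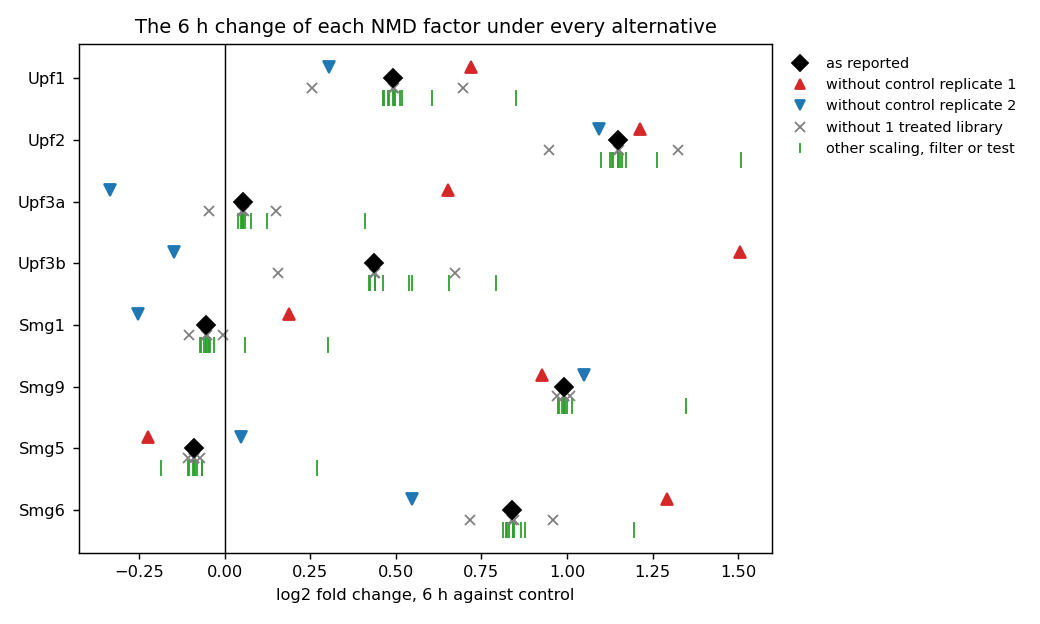
Log2 fold change of each factor at 6 h against control under every alternative way of processing or leaving out a library, with the value as reported marked. Upf2 stays between 0.95 and 1.51, and Upf3b ranges from -0.15 to 1.50.

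The replicates of the controls differed in the same direction for most members. Control replicate 1 was higher than control replicate 2 for 6 of 8 members, Smg9 and Smg5 being the exceptions. The share of all genes for which this held is not given here, so the count is a description only. The summed level of the 8 was 315 and 205 CPM in the controls, 346 and 306 at 3 h, and 322 and 398 at 6 h. The first control lay inside the range of the treated libraries and the second well below it. Upf3b alone made up 89.8 and 28.5 CPM of the sums in the controls. Control replicate 2 was also the library with the smallest total, and the part of depth in this difference was not tested.

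Genes whose pattern over the 6 libraries lay closest to each member were found by the distance between log2 CPM profiles centred on the controls, among 7061 genes with a mean of at least 10 CPM. For Upf2 these were Tsr1, a ribosome assembly factor, and Diexf. Tsr1 was at 27.05 and 22.8 CPM in the controls and at 47.7 and 59.9 at 6 h. For Smg9 the closest was Smyd4, followed by Gas5. Smyd4 was at 11.9 and 13.0 CPM in the controls, 21.3 and 20.3 at 3 h, and 23.0 and 25.8 at 6 h. Gas5 is a host RNA of small nucleolar RNAs reported as a substrate of the pathway. It was at 116.3 and 115.3 CPM in the controls, 192.1 and 190.1 at 3 h, and 223.5 and 234.2 at 6 h.

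Upf3b lay closest to Thoc2, an mRNA export factor, and Ash1l. Thoc2 was at 107.3 and 40.4 CPM in the controls, a gap in the same direction as that of Upf3b. Upf1 lay closest to Tmem201 and Wdr67, Upf3a to Ccdc34 and Atp7a, Smg1 to Fabp3 and Ric8, Smg5 to Mtmr7 and Tti1, and Smg6 to Zfp617 and Cdc42ep3. These profiles are over 6 libraries only and describe likeness in these libraries.

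The wider machinery of the pathway was called in both directions. Of 13 other machinery genes, 2 rose and 6 fell at 6 h, when 14.8% of all genes were called higher and 14.3% lower, and the median log2 change of the 13 was -0.49. At 3 h 1 rose and 1 fell, with a median of -0.11, and the count of 2 was 1 in each fit without control replicate 2 or without any one treated library. Pnrc2, a decapping adaptor, rose by 1.34 at 6 h (adjusted p = 0.000162, edgeR). Gspt2, a paralog of the release factor Gspt1, rose by 0.64, whereas Gspt1 fell by 0.49, and reads of these paralogs may be split between them. Gspt1 lost its call in 4 of 17 alternatives and Gspt2 in 2. Etf1, the release factor that reads the stop codon, fell by 0.72, and Ruvbl1, an ATPase linked to Smg1, fell by 0.64, a call lost in 2 of 17 alternatives. Without the first or the second 6 h library the count of 8 called genes dropped to 4 and 3, and scaled by library totals alone it was 4, of which 2 were higher.

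Of 10 genes of the exon junction complex and its partners, 2 rose and 2 fell at 6 h, when 14.8% of all genes were called higher and 14.3% lower. At 3 h 1 rose and 1 fell, against 3.6% and 1.3% of all genes, and the medians were -0.12 at both times. The count of 2 at 3 h was 1 without control replicate 1 and 0 without any other single library. Casc3, a peripheral factor of the complex, rose by 1.09 and Sap18 rose by 0.73 at 6 h, a call that Sap18 lost in 4 of 17 alternatives. The core subunits Magoh and Eif4a3 fell by 0.64 and 0.55 at 6 h. Reads of Magoh may be shared with its near copy Magohb, and Eif4a3 lost its call in 10 of 17 alternatives and Magoh in 1. Without the first or the second 6 h library, and scaled by library totals alone, 2 genes of this list were called.

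Of 25 genes of general mRNA decay, 2 rose and 1 fell at 6 h, when 29% of all genes were called. None was called at 3 h, when 4.9% of all genes were, and 3 of 25 had an unadjusted p under 0.05, which is 12% against 24.7% of all genes (edgeR). DESeq2 called 1 of the 25 at 3 h and limma-voom none. The median log2 change was 0.03 at 3 h and 0.06 at 6 h. The decapping activator Dcp1a rose by 0.93 and Pan3, of a deadenylase complex, rose by 0.74, while the decapping enzyme Dcp2 fell by 0.93. Pan3 lost its call in 4 of 17 alternatives. Without control replicate 1 the counts were 3 at 3 h and 7 at 6 h, without control replicate 2 the count at 3 h was 1, and scaled by library totals alone the count at 6 h was 11.

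Of 21 transcripts reported as substrates of the pathway, 20 were tested, and 9 rose and none fell at each time. The share of all genes called higher was 3.6% at 3 h and 14.8% at 6 h. The list had medians of 0.54 at 3 h and 0.62 at 6 h. Snhg12 rose by 2.52 and Snhg1 by 2.49 at 6 h, both host RNAs of small nucleolar RNAs. Gadd45a, a growth arrest gene, rose by 1.84. Without control replicate 1, 7 rose and 1 fell at 3 h, and 9 rose and 1 fell at 6 h. Without the first or the second 3 h library, 3 and 4 of the 20 were called at 3 h, and scaled by library totals alone 14 were called at 6 h. This list was drawn up from reports in mammalian cells with results of these data known, and its direction here is a description.

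**Figure D4:**
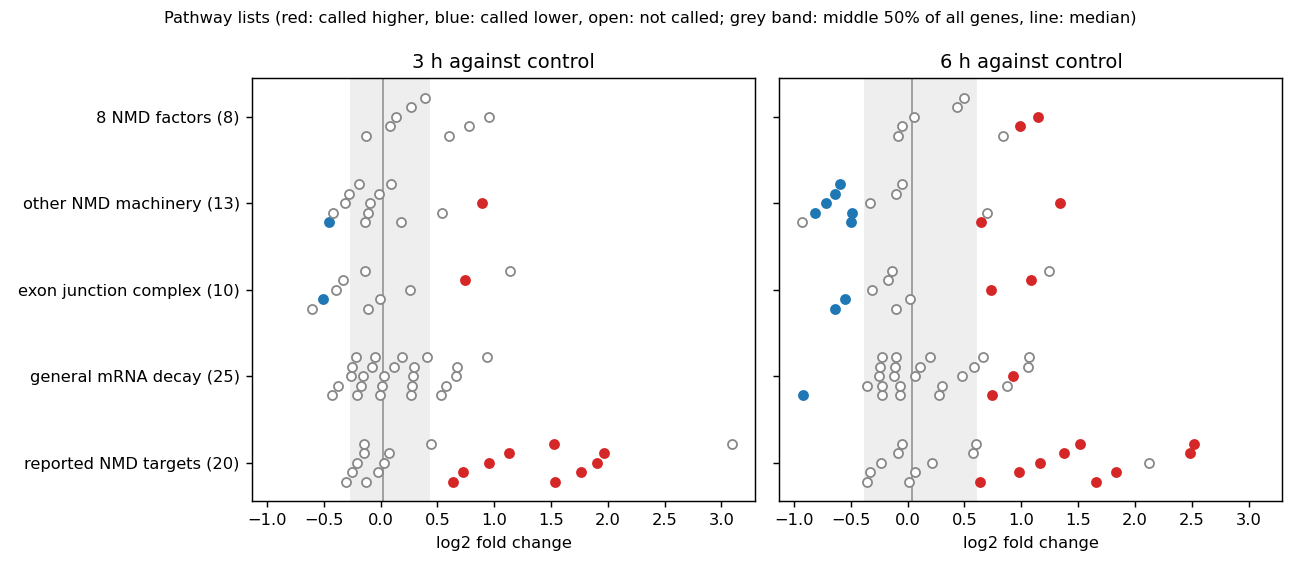
Fitted log2 changes of the 8 factors and of the other gene lists at 3 h and 6 h against control, with a point for each gene (red called higher, blue called lower, open not called). A grey band spans the central bulk of all genes tested, and a line marks their median. At 6 h the median of the 8 factors is 0.46 (0.18 to 0.82 when 1 library is left out), that of the 13 other machinery genes is -0.49 and that of the 20 reported substrates is 0.62.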

How the data were processed

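Total RNA was taken with TRIzol from bulk cultures, and polyadenylated RNA was sequenced as a barcoded pool, per the labels' protocols. The authors deposited 1 table of raw counts per gene for each library, made against mm10 per the submitters' processing notes. The aligner, the annotation, the use of strand and the removal of duplicate molecules are not given in the sources used here. Every row named a gene. The series' design text speaks of single cells, whereas title and labels describe bulk libraries, and each library was treated as bulk.

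The counts were fitted with edgeR 4.0.16 in R 4.3.3, with trimmed-mean scaling, all 6 libraries in 1 fit, no block, and a filter for 10 counts in the median library in at least 2 libraries and 15 in total. Of 17485 genes, 12755 were tested, and p-values were adjusted over all of them by Benjamini-Hochberg. SEs were the log2 change over the root of the F statistic. The 95% intervals and the 3-count floor (0.099 to 0.367 CPM) cover the fit's error and counting error only. Alternatives used DESeq2 1.42.0, limma-voom (limma 3.58.1), other scalings, filters and sample sets. The fit was tested on simulated data. Replicates within groups differed by more than sampling noise. No label says that replicate numbers pair samples. Deviations of same-numbered libraries correlated at 0.23 (control with 3 h), -0.05 (control with 6 h) and 0.01 (3 h with 6 h). These values do not settle whether samples were paired.

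The members and lists were chosen with earlier results of these data known. Genes named from lists were up to 4 that rose and 4 that fell with the smallest p at 6 h, plus Smg8; the 2 genes nearest each member were named too. A gene first listed among the other machinery is not reported here, for a reason unrelated to its values, and the list's counts leave it out. Gene positions come from GENCODE M21 for mm10 and promoters from RefSeq.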

Additional observations from a re-analysis of the deposited data

Results flagged for a closer look

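Of the members and the list genes named above, 2 list genes differed between 6 h and 3 h by a direct test of the 2 treatment times. Over all genes 1.64% were called in that test. Snhg1 was named for its small p at 6 h against control, which uses the same 6 h libraries. Smg8, of the kinase complex, was lower at 6 h than at 3 h by a log2 change of -0.70 (adjusted p = 0.0442, edgeR). Both 6 h libraries of Smg8 lay below both 3 h libraries, as did those of 26.9% of all genes. Snhg1 was higher at 6 h than at 3 h by 0.52 (adjusted p = 0.0364, edgeR), with both 6 h libraries above, as for 27.2% of all genes. Both calls ended without any one of the 4 treated libraries, with log2 changes of -0.79 to -0.60 for Smg8 (adjusted p of 0.185 to 0.321, edgeR) and 0.49 to 0.55 for Snhg1 (adjusted p of 0.155 to 0.27, edgeR). That of Smg8 also ended with scaling by library totals alone (adjusted p = 0.072) and with upper quartile scaling (adjusted p = 0.054).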

How the results depend on the processing

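The rise of Upf2 at 6 h was called in all 17 alternatives, and that of Smg9 in 8 of 16, since Smg9 was not tested with a filter of 20 CPM (nor were Upf3a, Smg5 and Smg6). Of the 8 factors, the number called at 3 h went from 0 to 2 (Upf2 and Smg6) with scaling by library totals alone and with no filter on low counts, and it was 0 to 1 when leaving out 1 library. At 6 h it went from 2 to 4 with library totals, to 5 with no filter, and to 1 with the 20 CPM filter, with limma-voom and with only the 4 libraries compared, and it was 1 to 3 when leaving out 1 library. From 3 h to 6 h it went from 0 to 1 (Upf2) with no filter. With the replicate number as a block the 3 counts were 0, 3 and 0, Smg6 being added at 6 h (adjusted p = 0.0374), and the calls of Smg8 and Snhg1 between the times ended (adjusted p = 0.0773 and 0.0618). The causes were not tested.

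Changes of direction touched only changes that were not called. With library totals these were Smg1 (0.30) and Smg5 (0.27) at 6 h, Upf3a at 3 h (0.10) and Smg6 from 3 h to 6 h (0.012), and with the 20 CPM filter Smg1 at 6 h (0.059). Leaving out 1 library gave Smg1 -0.064 to 0.38 at 3 h and -0.25 to 0.19 at 6 h, Smg5 -0.053 to 0.22 and -0.22 to 0.047, Upf3a -0.52 to 0.47 and -0.33 to 0.65, and Upf3b -0.31 to 1.34 and -0.15 to 1.50. From 3 h to 6 h it gave Upf1 -0.15 to 0.40, Upf3a -0.022 to 0.42, Upf3b -0.21 to 0.68 and Smg6 -0.25 to 0.029.

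Over all genes, 625 were called at 3 h, against 1373 with library totals, 1816 with no filter, 1447 with DESeq2, 218 with 4 libraries and 108 to 1033 when leaving out 1 library. At 6 h 3703 were called, against 2460 with the 20 CPM filter and 1312 to 3578 when leaving out 1 library. From 3 h to 6 h 209 were called, against 1063 with no filter, 688 with DESeq2, 508 with limma-voom, 563 with 4 libraries, 126 with the block and 14 to 595 when leaving out 1 library. The 20 CPM filter tested 5971 genes and the fit with no filter 17485, against 12755 as reported, so those counts have unlike totals. Of the genes called from 3 h to 6 h 27.8% were higher, and 56.5% with library totals. In the controls Smg9 and Smg6 had 25 to 86 counts, and Upf3a had 82 in replicate 2, which limits the precision of their changes.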
